A study of Mus musculus with 2 samples.

Results

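The genes described here are the mouse potassium channel genes, taken as every protein-coding gene of the GENCODE annotation of mm10 (also called GRCm38) whose symbol starts with Kcn. They numbered 94 among 21474 protein-coding genes and 43346 Ensembl genes listed in the deposited data, and no annotated one was missing. Their symbols fall into 21 subfamilies, from Kcna to Kcnv, and 77 members encode a pore-forming subunit and 17 an accessory one. They were measured by total RNA-seq in whole heart of B6NCrl mouse embryos at embryonic day 13.5. The design held 1 group of 2 libraries, replicates 1 and 2, numbered as biological replicates, each made from healthy tissue of male and female embryos combined. No mutant, treated or later group is among the samples used here, so no comparison between conditions was made and no p-value was computed. The labels give an input of 10 ng of RNA, a size range above 200 nt and added spike-in RNA, and they point both tissue records to 1 donor record. Whole hearts were pooled, so a level in TPM (transcript abundance corrected for transcript length and scaled to a common total) is an average over all cells of the organ, and fewer cells of a type and less RNA per cell cannot be told apart.

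Potassium channels let potassium ions leave the cell and so set the resting membrane potential and end the action potential. A voltage-gated channel is built from pore subunits that open on depolarisation, an inward rectifier passes current best near the resting potential, and a channel with a pair of pore domains per subunit carries background current. Accessory subunits form no pore but change the gating, surface level or assembly of the pore subunits they bind, and in the heart the pairing of Kcnq1 with Kcne1 is the classical example.

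The libraries summed to 36733400 estimated reads in replicate 1 and 36060765 in replicate 2, and 1 TPM of a 1 kb transcript stood for 29.3 and 27.4 reads. A chi-square of 25.2 per degree of freedom over 13766 genes set the libraries apart beyond counting error, so they were not repeat reads of 1 library. It cannot show that they came from separate embryos. Each counted as a sample because the labels number them as biological replicates. All 6 cardiomyocyte markers (Myh6, Myh7, Tnnt2, Actn2, Ryr2 and Nkx2-5) were above 1 TPM in both, with summed levels of 7554 and 8514 TPM, as for heart tissue. The TPM share of spike-ins was 11.1% in replicate 1 and 5.04% in replicate 2, that of globins 13.6% and 9.05%, and the median protein-coding gene had a log2 TPM ratio of -0.14 (replicate 1 over replicate 2). A TPM lower by about this much in replicate 1 therefore moved with the bulk of genes.

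The pore members share a short stretch that the choice by symbol did not use, the selectivity filter. It is shown here because it is what separates pore from accessory subunits in the sequence itself. Coding sequences of GENCODE M21 transcripts were searched for a codon of glycine, then tyrosine, phenylalanine or leucine, then glycine, with threonine or serine in the codon next but one before it. All 77 pore members held such a triplet and none of the 17 accessory members did. Members of the class with a pair of pore domains held a triplet for each domain in 14 of 14 genes, while Kcna6 and Kcnh2 each held an additional leucine match outside the pattern of their class. The following lines give 33 bases of the coding strand, with the triplet in capitals, for detected pore members of 3 classes.
Kcnh2: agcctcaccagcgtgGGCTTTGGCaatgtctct
Kcna5: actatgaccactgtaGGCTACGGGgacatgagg
Kcna4: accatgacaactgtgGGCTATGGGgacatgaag
Kcnj5: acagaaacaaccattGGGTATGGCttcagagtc
Kcnj8: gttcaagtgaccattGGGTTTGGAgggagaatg
Kcnk3, first domain: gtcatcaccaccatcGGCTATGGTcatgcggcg
Kcnk3, second domain: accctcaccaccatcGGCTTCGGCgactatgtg
Kcnk1, second domain: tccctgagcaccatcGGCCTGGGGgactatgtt
The Kcnh2 window lies at chr5:24325546-24325578 (minus strand) and that of Kcnj5 at chr9:32322550-32322582 (minus strand), both on GRCm38 and each in 1 coding exon. The window of the second Kcnk3 domain lies at chr5:30622193-30622225 (plus strand), and that of the first crosses an exon boundary. The middle codon was that of tyrosine in 10 of 10 silent subunits and in 13 of 15 inward rectifiers, with phenylalanine in the other 2. Among channels with a pair of pore domains 11 triplets had tyrosine, 14 phenylalanine and 3 leucine, the last in the second domain of Kcnk1, Kcnk6 and Kcnk7. A match is a description of these letters and not a measure of channel function.

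Of the 94 potassium channel genes, 30 (31.9%) reached 1 TPM in both libraries, against 57.3% of all protein-coding genes, and these 30 are called detected below. Another 3 reached it in 1 library only and 61 in neither. The median over the 94 members was 0.35 and 0.355 TPM in replicates 1 and 2, against 2.93 and 3.19 TPM for the median protein-coding gene. The share of detected members was thus below that of protein-coding genes at large, as was also the case for 11 of 26 voltage-gated calcium channel subunit genes and 3 of 14 sodium channel subunit genes counted in the same way. Just inside the threshold stood Kcne2, with 1.02 TPM in each library, and just outside it, by the lower of both values, Kcnip3, with 1.05 and 0.76 TPM, and Kcng1, with 0.69 and 0.80 TPM. The signal was concentrated in few genes. Members with a mean of at least 10 TPM numbered 7 (Kcne1, Kcnk3, Kcnh2, Kcne1l, Kcnj5, Kcng2 and Kcnq1), and they held 67.3% of the summed TPM of the 94. At the low end, 25 members were below 0.1 TPM in both libraries. A mean of 0.1 TPM, that of Kcnk10, ranked 15381 among 21474 protein-coding genes, so such low levels were not particular to members.

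**Figure D1:**
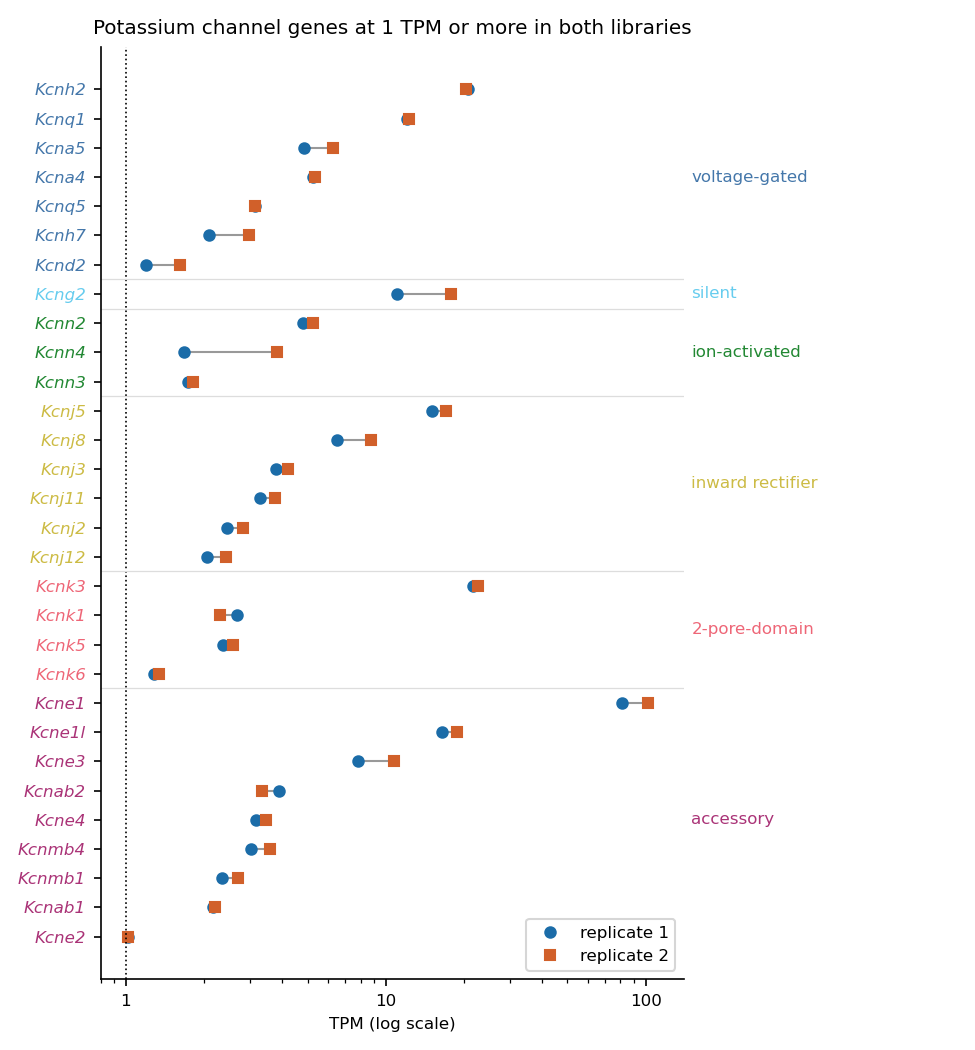
TPM of the 30 detected potassium channel genes in replicate 1 (circles) and replicate 2 (squares), on a log axis, grouped by class, with a dotted line at 1 TPM. Kcne1 stands alone at 81.2 and 102 TPM, no other member exceeds 22.7 TPM, and the 2 points of a gene lie close together except for Kcnn4 and Kcng2.

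Among pore-forming members 21 of 77 (27.3%) were detected, and among accessory members 9 of 17 (52.9%), a difference for which no test was made. The pore-forming class summed to 141 TPM in replicate 1 and 161 TPM in replicate 2 (151 ± 14.1, SD, n = 2), and the accessory class to 124 and 152 TPM (138 ± 19.6). The summed levels of both classes were therefore nearly equal, with pore over accessory ratios of 1.14 in replicate 1 and 1.06 in replicate 2, although the accessory class has far fewer genes. That near equality rested on 1 gene. Without Kcne1, a comparison added after its level was seen, the ratio was 3.28 in replicate 1 and 3.24 in replicate 2. Over the mean of both libraries it was 1.10 in TPM, 2.78 without the highest gene of each class, and 2.90 in CPM, which has no length correction. The median member was at 0.22 and 0.24 TPM among pore genes and at 1.05 and 1.02 TPM among accessory genes.

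By subfamily, Kcne was detected in full, with 5 of 5 genes, and Kcnn nearly so, with 3 of 4. Kcnab had 2 of 3, Kcnmb 2 of 4, Kcnj 6 of 15, Kcnq 2 of 5, Kcnd 1 of 3 and Kcnk 4 of 14. Kcna, Kcnh and Kcng each had a detected share of 25% (2 of 8, 2 of 8 and 1 of 4). No gene was detected in both libraries in Kcnb, Kcnc, Kcnf, Kcnip, Kcnma, Kcnrg, Kcns, Kcnt, Kcnu and Kcnv, which hold 21 genes together. Summed by subfamily, Kcne led at 110 and 136 TPM, followed by Kcnj at 34.4 and 41.2 TPM, Kcnk at 29.0 and 30.0 TPM and Kcnh at 23.6 and 23.9 TPM. Of these, the sums of Kcne, Kcnk and Kcnh each rested largely on a single gene, with 74.6% of the mean Kcne sum from Kcne1, 75.2% of that of Kcnk from Kcnk3 and 86.3% of that of Kcnh from Kcnh2.

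**Figure D2:**
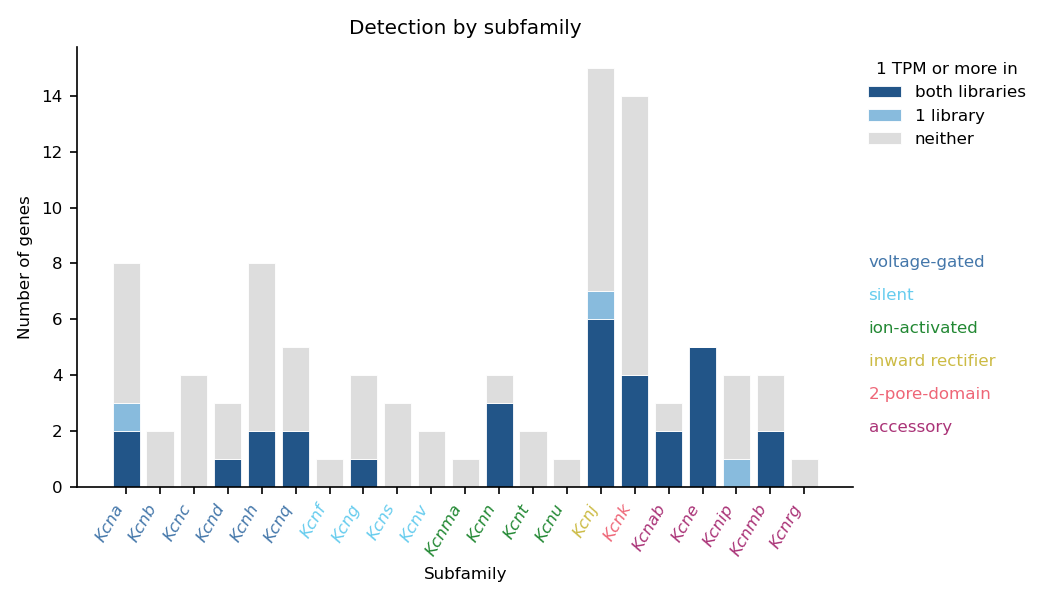
Number of genes in each potassium channel subfamily, with bars split into genes at 1 TPM or more in both libraries (dark), in 1 library (light blue) and in neither (grey), and subfamily names coloured by class. Kcne is the only subfamily filled entirely by the dark colour (5 of 5), while Kcnj and Kcnk, with 15 and 14 genes, have 6 and 4.

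Voltage-gated pore genes were led by the subunits of the delayed rectifier currents that repolarise the heart. Kcnh2, the pore of the rapid delayed rectifier, lies on chromosome 5 from 24319589 to 24351604 and had 20.7 TPM in replicate 1 and 20.3 TPM in replicate 2. Kcnq1, the pore of the slow delayed rectifier, lies on chromosome 7 from 143106362 to 143427042 and had 12.1 and 12.3 TPM. Kcnh2 exceeded Kcnq1 1.68-fold, with the same order in both libraries and credibility intervals, as deposited, that did not overlap. Transcripts not annotated as protein-coding held 21.6% and 19.5% of Kcnh2 TPM, and almost none of Kcnq1 TPM. The difference was therefore smaller among coding transcripts. The antisense RNA gene Kcnq1ot1 lies inside Kcnq1, and the estimated counts of Kcnq1 were not whole in either library, so its level is uncertain to that extent.

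Below these came the shaker-type channels. Kcna5, the pore of the ultrarapid delayed rectifier, had 4.86 TPM in replicate 1 and 6.25 TPM in replicate 2. Kcna4, which carries a slowly recovering transient outward current, had 5.27 and 5.35 TPM. Their order turned round between the libraries and their intervals overlapped, so the levels of Kcna5 and Kcna4 could not be ordered.

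The fast transient outward current uses Kcnd2 and Kcnd3 with the accessory subunit Kcnip2. Kcnd2 had 1.20 TPM in replicate 1 and 1.62 TPM in replicate 2, Kcnd3 0.52 and 0.61 TPM, and Kcnip2 0.59 and 0.54 TPM. Only Kcnd2 was detected, but the intervals of Kcnd2 and Kcnd3, and of Kcnd2 and Kcnip2, overlapped, so neither pair had an order. The deposited point values of Kcnd3 and Kcnip2 also stood below their posterior means, and with posterior means Kcnip2 was counted as detected. The auxiliary genes Dpp6 and Dpp10, which encode membrane proteins that bind these channels, had 0.40 and 0.41 TPM and 0.03 and 0.15 TPM.

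Kcnq5, known for a muscarine-sensitive current in neurons, had 3.15 TPM in each library. Kcnh7, a relative of Kcnh2 best known from the nervous system, had 2.09 and 2.99 TPM. Both had estimated counts that were not whole, and both overlap an antisense gene. Transcripts not annotated as protein-coding held 23.0% and 26.1% of Kcnh7 TPM, and 17.25% and 6.18% of Kcnq5 TPM. Of the markers of neurons and glia, 4 of 7 were detected, with summed levels of 14.2 and 17.2 TPM, and their part in these values was not tested. The 23 voltage-gated genes that were not detected in both libraries lay between 0 and 1.06 TPM, and Kcna6, at 1.06 and 0.50 TPM, was the single one to reach 1 TPM in a library. Of its TPM, 72.7% and 99.99% came from transcripts not annotated as protein-coding, the largest part from one annotated as a target of nonsense-mediated decay.

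Silent subunits have a filter triplet but form channels only with other pore subunits, mainly those of Kcnb. Kcng2 was the 1 detected member of 10, with 11.1 TPM in replicate 1 and 17.9 TPM in replicate 2. Its scaled counts were also lower in replicate 1 (log2 ratio -0.47), the third lowest ratio among 41 members with a mean count of at least 50. Kcnb2, of the subfamily with which silent subunits assemble, was at 0.41 and 0.38 TPM, far below Kcng2. Kcng2 overlaps an antisense gene, D330025C20Rik, and its counts were not whole in either library. The other 9 silent genes did not exceed 0.80 TPM.

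Among ion-activated channels, all 3 detected genes belonged to the calcium-activated Kcnn subfamily. Kcnn2, a small-conductance channel gene known from atrial muscle and pacemaker tissue, had 4.79 TPM in replicate 1 and 5.27 TPM in replicate 2. Kcnn3 had 1.73 and 1.81 TPM and Kcnn1 0.67 and 0.61 TPM. Kcnn2 exceeded Kcnn3 2.84-fold with intervals apart in both libraries. Kcnn4, the intermediate-conductance channel known from red blood cells and immune cells, had 1.68 TPM in replicate 1 and 3.83 TPM in replicate 2, and exceeded Kcnn1 3.97-fold, again with intervals apart. The size of that difference rested on the library, at 2.51-fold in replicate 1 alone and 6.28-fold in replicate 2 alone. The large-conductance channel gene Kcnma1 was at 0.14 and 0.19 TPM, and the sodium-activated channel genes Kcnt1 and Kcnt2 at 0.06 and 0.13 TPM and at 0.48 and 0.67 TPM.

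Of the inward rectifiers 6 of 15 were detected, and among them were both pore genes of the acetylcholine-gated channel and both of the ATP-sensitive channels. Kcnj5, a pore subunit of the acetylcholine-gated channel, lies on chromosome 9 from 32314707 to 32344350 and had 15.0 TPM in replicate 1 and 17.1 TPM in replicate 2. Kcnj3, its partner in that channel, had 3.77 and 4.19 TPM. The level of Kcnj5 was thus 4.03-fold that of Kcnj3, in the same order in both libraries. Kcnj8, an ATP-sensitive pore gene of blood vessels and heart, had 6.52 and 8.75 TPM, and Kcnj11, the ATP-sensitive pore gene of beta cells and ventricular muscle, had 3.27 and 3.74 TPM.

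The sulphonylurea receptors complete the ATP-sensitive channel, and each gene lies beside 1 of these pore genes. Abcc9 lies 16.2 kb from Kcnj8 on chromosome 6 and had 9.30 TPM in replicate 1 and 10.4 TPM in replicate 2. Abcc8 lies 3.76 kb from Kcnj11 on chromosome 7 and had 2.97 and 3.20 TPM. Kcnj8 was 2.16-fold above Kcnj11 and Abcc9 3.19-fold above Abcc8. Within the neighbours, Abcc9 was 1.30-fold above Kcnj8, with intervals apart in both libraries. The intervals of Abcc8 and Kcnj11 overlapped in both libraries, so these genes had no order.

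The strong inward rectifiers that hold the resting potential of ventricular muscle did not exceed 2.83 TPM. Kcnj2 had 2.45 TPM in replicate 1 and 2.83 TPM in replicate 2, and Kcnj12 2.06 and 2.43 TPM. Their intervals overlapped, so the 2 genes had no order. Kcnj4, the third gene of this kind, was at 0.17 and 0.16 TPM. Of the remaining inward rectifiers only Kcnj15, a gene best known from kidney, reached 1 TPM in a library, with 0.58 and 1.37 TPM. Its point value in replicate 1 lay outside the deposited interval of 0.692 to 1.80 TPM, and with posterior means, 1.21 and 2.05 TPM, Kcnj15 was counted as detected. The kidney and brain genes Kcnj1, Kcnj9 and Kcnj16 had no read.

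Among the background channels with a pair of pore domains, Kcnk3 had the highest point value of all 77 pore genes. Its deposited intervals overlapped those of Kcnh2 in both libraries, so Kcnk3 and Kcnh2 had no order. Kcnk3 encodes an acid-sensitive channel, lies on chromosome 5 from 30588170 to 30625271, and had 21.6 TPM in replicate 1 and 22.7 TPM in replicate 2. Kcnk2, a stretch-sensitive channel gene described in adult heart, had 0.42 and 0.41 TPM, and the ratio of Kcnk3 to Kcnk2 was 53.4. With posterior means in place of point values the log2 ratio was 4.42 and 4.46, against 5.69 and 5.79, so its size depends on the estimate. Kcnk1, a weakly conducting background channel gene, had 2.68 and 2.30 TPM, and Kcnk5, an alkali-activated channel gene, had 2.36 and 2.59 TPM. Kcnk6, a close relative of Kcnk1, had 1.28 and 1.34 TPM, and the other 10 genes of the class lay between 0 and 0.42 TPM.

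Accessory genes were led by Kcne1, which encodes a small membrane protein that slows the opening of the Kcnq1 channel. It lies on chromosome 16 from 92345982 to 92359468 and had 81.2 TPM in replicate 1 and 102 TPM in replicate 2 (91.7 ± 14.9, SD, n = 2), which placed it at rank 1369 among 21474 protein-coding genes. It held 31.7% of the summed TPM of all members. Kcne1 was 7.48-fold above Kcnq1, with log2 ratios of 2.75 and 3.06. In estimated reads the lead was small, with 2355 and 2811 for Kcne1 and 2350 and 2309 for Kcnk3. Its TPM reflects an effective length of 990 nt in replicate 1, against 3711 nt for Kcnk3.

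All other Kcne genes were detected too. Kcne1l (also called Kcne5), which inhibits Kcnq1 currents, had 16.5 TPM in replicate 1 and 18.8 TPM in replicate 2. Kcne3, which holds Kcnq1 channels open in epithelia, had 7.80 and 10.7 TPM, and Kcne1 was 9.95-fold above it. Kcne4, a further inhibitor of Kcnq1, had 3.17 and 3.46 TPM. Kcne2, a partner of Kcnh2, was lowest at 1.02 TPM in each library, from 47 and 43 reads, and its interval reached below 1 TPM.

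Subunits of other channels were lower. The cytoplasmic beta subunits of Kcna channels, Kcnab2 and Kcnab1, had 3.87 and 3.35 TPM and 2.16 and 2.21 TPM, and Kcnab2 was 1.65-fold above Kcnab1. Kcnab2 was the 1 detected member whose point value lay outside its deposited interval, 4.18 to 6.48 TPM in replicate 1, so its level is less certain. Kcnmb4 and Kcnmb1, which tune the large-conductance calcium-activated channel, had 3.02 and 3.60 TPM and 2.34 and 2.71 TPM. The gene of the pore they bind, Kcnma1, stood below both, as given above. None of the 4 Kcnip genes was detected in both libraries, and Kcnip3, at 1.05 and 0.76 TPM, reached 1 TPM in replicate 1. Kcnrg, which encodes a regulator of channel assembly, had 0.32 and 0.63 TPM.

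**Figure D3:**
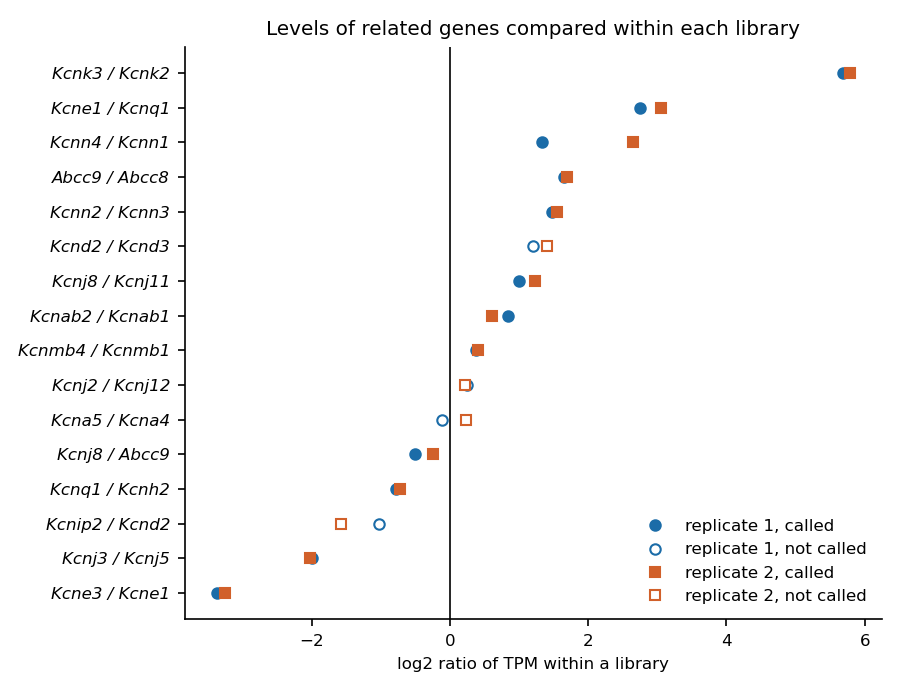
Log2 ratio of TPM between the genes of 16 of the 17 pairs, first gene over second, in replicate 1 (circles) and replicate 2 (squares); filled points mark pairs with the same order in both libraries and deposited credibility intervals that do not overlap, open points the 4 others. Kcnk3 over Kcnk2 lies farthest right and Kcne3 over Kcne1 farthest left, and for Kcna5 over Kcna4 the points fall on opposite sides of 0.

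Of 22 members listed for their known part in cardiac currents, 16 (72.7%) were detected, against 57.3% of all protein-coding genes, and the list's median level was 2.86 and 3.29 TPM in replicates 1 and 2. Those not detected included Kcnd3, Kcnip2, Kcnj4, Kcnk2 and Kcnn1, whose values are given above. Of the 17 listed pairs, 13 had the same order in both libraries with intervals apart. The 4 without an order were Kcnd2 with Kcnd3, Kcnip2 with Kcnd2, Kcna5 with Kcna4 and Kcnj2 with Kcnj12. The list and the pairs were chosen with earlier results of these data known, and no share over other gene pairs was counted. The level of the intervals is not stated in the file headers. Of 16 partner genes that are no channel gene by symbol, 10 (62.5%) were detected, near the 57.3% of all protein-coding genes, among them Akap9, a scaffold of the slow delayed rectifier, at 73.2 and 77.9 TPM, and Cav3, the muscle caveolin, at 58.6 and 71.8 TPM. In TPM, Akap9 and Cav3 stood above every potassium channel gene except Kcne1. In estimated reads the order was another. Akap9, with 3121 and 3196, also exceeded Kcne1, with 2355 and 2811, while Cav3, with 1820 and 2087, lay below Kcnk3, with 2350 and 2309. The TPM order therefore depends on the length correction, and the transcripts behind the Akap9 level are not given here.

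Members without signal were also spread over classes. Kcna2, Kcna10, Kcng3, Kcnh4, Kcnj1, Kcnj9, Kcnj16 and Kcnk9 had 0 reads in both libraries. A count of 0 allows up to 3 reads, which for these genes is a level of 0.0273 to 0.0988 TPM in replicate 1 and 0.0292 to 0.106 TPM in replicate 2, for counting error only. The deposited intervals of these genes reached higher, with upper bounds of up to 0.475 TPM in replicate 1 and 0.510 TPM in replicate 2, both for Kcnj16. All 8 are pore genes, a class of 77 among the 94 members, and 3 of the 8 are inward rectifiers. By mean TPM the 8 tied at rank 19440 among 21474 protein-coding genes. They shared that rank with many other genes at 0 TPM, so absence of signal was not particular to members. Of 10 pairs of members within 150 kb of each other, 5 held a detected and an undetected gene, 1 held a pair of detected genes and 4 held none. Kcnj5, at 15.0 and 17.1 TPM, lies 28.1 kb from Kcnj1, which had no read. Likewise Kcnj2 lies 38.2 kb from Kcnj16, Kcna5 105 kb from Kcna1 (0.11 and 0.03 TPM) and Kcnk5 79.6 kb from Kcnk16 (0.04 and 0.09 TPM). Kcnmb1 lies inside Kcnip1 on the opposite strand, at 2.34 and 2.71 TPM against 0.12 and 0.35 TPM for Kcnip1. Kcne1 and Kcne2, 47.9 kb apart on chromosome 16, were the 1 neighbouring pair with both genes detected, with 81.2 and 102 TPM for Kcne1 and 1.02 TPM in each library for Kcne2.

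Of the 30 detected members, 13 have a single listed transcript, so its share is fixed by the annotation, and 17 have several. Of those 17, 12 (70.6%) had 1 transcript above 50% of the gene's TPM in both libraries, against 71.5% of detected protein-coding genes with several transcripts, a share close to that background. With percents from posterior means the count was 10. Kcne1 was read mainly as Kcne1-202, a 601-nt transcript with 80.9% of the gene's TPM in replicate 1 and 80.3% in replicate 2, and the 3155-nt Kcne1-201 held 19.1% and 19.7%. The high TPM of Kcne1 thus came mostly from its shorter form. For Kcnh2 the full-length Kcnh2-201 held 56.0% and 52.3%, and Kcnh2-202, which starts 22.0 kb further along the gene, held 22.4% and 28.2%. Both forms of Kcnh2 were therefore present in each library. Kcnq1-201 held 90.8% and 96.0% of Kcnq1.

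The 5 members without such a transcript were Kcnab1, Kcne2, Kcne3, Kcnn2 and Kcnq5. In Kcne2 the share of Kcne2-202 was 42.3% in replicate 1 and 100% in replicate 2, from fewer than 50 reads in each, so the split is not settled at this depth. For Kcnab1, transcripts not annotated as protein-coding held 54.6% and 82.2% of TPM, so its gene level exceeds the level of its coding transcript, 0.98 and 0.39 TPM. In Kcnn2 transcripts of this kind held 36.0% in each library. Gene-level detection of Kcnab1 therefore did not mean 1 TPM of its coding transcript.

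Between the libraries the members differed little. Of 41 members with a mean estimated count of at least 50, 1 was 2-fold or more apart after scaling of counts, against 0.937% of 12804 protein-coding genes (2.44% of members, from a single gene). That gene was Kcnn4, with 95 reads in replicate 1 and 203 in replicate 2 (log2 ratio -1.05), the direction of 0.711% of all genes, while no member and 0.226% of all genes were 2-fold higher in replicate 1. Each side is 1 library, so the difference has no replicate check. Hepatocyte markers, of which 6 of 8 were detected, were lower in replicate 1 for 8 of 8 genes, with summed levels of 93.3 and 469 TPM, and 5 of 6 erythroid markers were lower there as well, although their sum, 270 against 205 TPM in replicate 2, was carried by Alas2. Summed globins were at 135868 and 90503 TPM. The 6 macrophage markers summed to 144 and 157 TPM, a sum carried by Lyz2, while 5 of the 6 genes were higher in replicate 1 by scaled counts. The part of such cells in the Kcnn4 difference was not tested. Kcnj15, Kcna6 and Kcnip3 were also close to 2-fold, with log2 ratios of -0.93, 0.92 and 0.82, all at about 100 reads or fewer. The median absolute log2 ratio was 0.164 for members and 0.0931 for all such genes, and the median count was 201 for members and 1037 for the other genes.

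**Figure D4:**
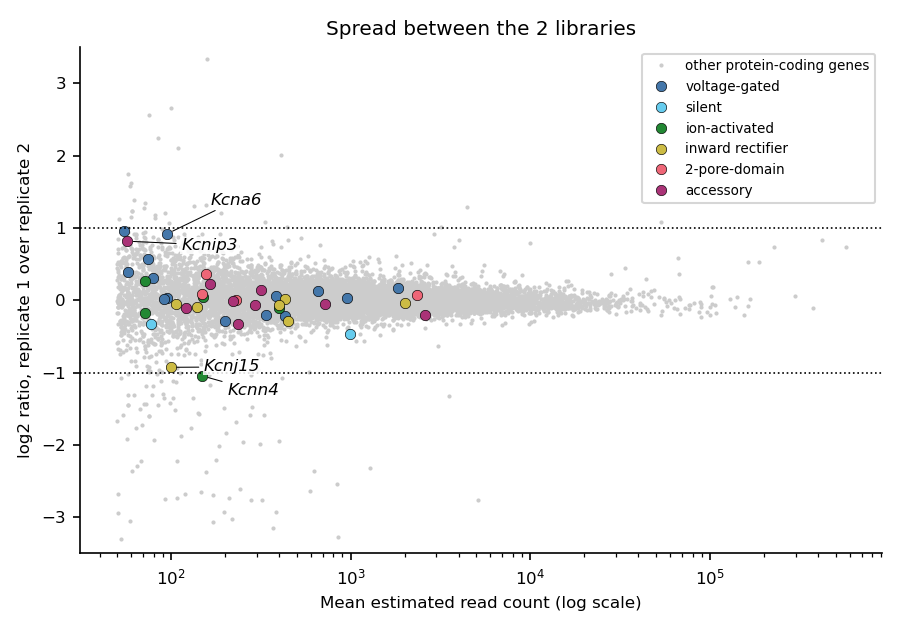
Log2 ratio of scaled estimated counts, replicate 1 over replicate 2, against the mean estimated count (log axis) for 41 potassium channel genes, coloured by class, and for other protein-coding genes (grey), with dotted lines at 2-fold. Kcnn4 is the only member past a dotted line, and 7 grey genes lie beyond the plotted range.

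The stretch upstream of the start site was compared because CpG-rich promoters are common among broadly active genes. RefSeq's table (GRCm38.p6) held a promoter for 69 of 94 members by symbol, chromosome and strand. For 44 of these the RefSeq start lay within 100 bp of the start of the gene's leading transcript, and only they were used. Over the 250 bases before the start, the ratio of observed to expected CpG had a median of 0.34 in 13 detected members and of 0.61 in 31 members not detected in both libraries. Among all protein-coding genes chosen in the same way the order was the other way round, with a median of 0.74 in 7696 detected genes and 0.21 in 5284 others. A ratio of at least 0.6 occurred in 2 of 13 detected members (15.4%), Kcnab2 and Kcnk5, and in 16 of 31 others (51.6%), against 70.5% of detected and 14.3% of other protein-coding genes. The size of this difference depended on the 100 bp limit. Without it, a choice added after seeing the data, the medians were close, at 0.43 in 23 detected members and 0.49 in 46 others, and a ratio of at least 0.6 occurred in 6 (26.1%) and 19 (41.3%) of them, against 69.4% of detected and 15.7% of other protein-coding genes. Within the limit, the highest ratios belonged to Kcnj6 and Kcna3 among the genes not detected. These are counts over few genes, many leading members (Kcne1, Kcnk3, Kcnq1 and Kcng2 among them) are not included, and no test was made.

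Promoters of 3 detected members, chosen after the ratios were seen, show few, intermediate and many CG pairs. They are given from 250 bases before the RefSeq start up to it, 5′ to 3′ on the gene's strand, with each CG pair in capitals.
Kcnmb1: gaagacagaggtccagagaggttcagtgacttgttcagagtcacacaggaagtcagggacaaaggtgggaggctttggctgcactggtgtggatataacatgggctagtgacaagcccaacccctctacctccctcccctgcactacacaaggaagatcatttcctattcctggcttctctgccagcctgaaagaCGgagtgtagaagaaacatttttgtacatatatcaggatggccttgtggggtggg
Kcnj5: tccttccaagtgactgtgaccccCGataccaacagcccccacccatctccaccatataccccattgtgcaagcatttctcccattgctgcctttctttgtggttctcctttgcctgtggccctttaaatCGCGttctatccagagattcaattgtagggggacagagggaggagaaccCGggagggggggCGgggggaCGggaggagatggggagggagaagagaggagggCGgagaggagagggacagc
Kcnk5: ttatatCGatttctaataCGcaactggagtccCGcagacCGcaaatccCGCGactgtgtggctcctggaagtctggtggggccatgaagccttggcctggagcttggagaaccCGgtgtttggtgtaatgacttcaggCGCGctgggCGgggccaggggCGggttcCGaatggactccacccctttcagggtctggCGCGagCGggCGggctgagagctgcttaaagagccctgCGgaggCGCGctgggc
The Kcnmb1 window (chr11:33962763-33963012, plus strand) holds 1 CG pair, that of Kcnj5 (chr9:32344345-32344594, minus strand) 7, with a ratio of 0.34, and that of Kcnk5 (chr14:20181783-20182032, minus strand) 19, with a ratio of 0.79. Kcnmb1 and Kcnk5 had nearly the same level, 2.34 and 2.71 TPM for Kcnmb1 and 2.36 and 2.59 TPM for Kcnk5, on promoters with 1 and 19 CG pairs. The motif GGGCGG, searched on both strands, was in 8 of 13 detected members (61.5%), against 62.7% of detected protein-coding genes, and TATAAA in none of the 13, against 6.16%. These letters in a window are no measure of binding.

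**Figure D5:**
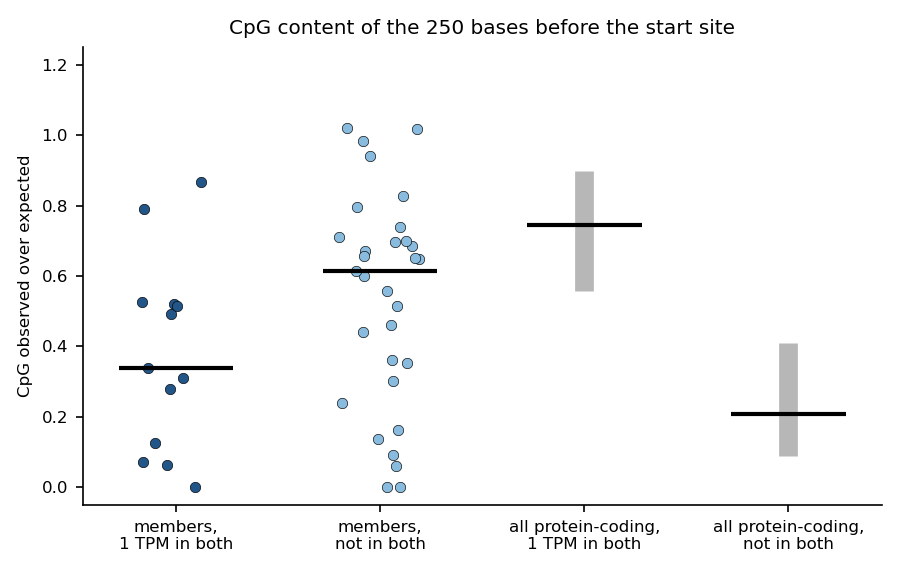
Ratio of observed to expected CpG in the 250 bases before the start site for 13 detected and 31 other potassium channel genes (points, with lines at the medians of 0.34 and 0.61), beside all protein-coding genes split in the same way (line at the median, bar over the central range from the first to the third quartile). Within the 100 bp limit used here the members' medians lie in the opposite order to those of all genes, 0.74 and 0.21, while without that limit they were 0.43 and 0.49.

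Some members cannot be separated fully from a neighbour. Exons of 26 members overlap exons of another gene on the opposite strand, and 2, Kcnab2 and Kcnk4, on the same strand. No source used here states whether counting used the strand. Estimated counts were not whole in both libraries for 8 members, among them Kcng2, Kcnh7, Kcnj3, Kcnn2, Kcnq1 and Kcnq5. Over the 66 members with neither feature, 18 (27.3%) were detected, including Kcne1, Kcnh2, Kcnj5 and Kcne1l. Kcnk3 is not among the 66, as its exons overlap the antisense gene Gm9899. The share detected among all protein-coding genes with neither feature was not counted, so the 27.3% has no background beside it.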

How the data were processed

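Total RNA of E13.5 heart was measured in 2 libraries. The deposited expected counts per gene and transcript are not normalized, per the file headers. The deposited TPM values share 1 total per library that includes the spike-ins. The authors also gave credibility bounds, a signal on the TPM scale, and the percent of a gene's TPM in each transcript, per the file headers. Values were made on mm10 with GENCODE M4, per the labels' file descriptions; no source used here names the aligner or quantifier. Genes were matched by ID without version to GENCODE M21, for 42462 of 43346.

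Expected counts were rounded and scaled with edgeR 4.0.16 (TMM; DESeq2 1.42.0 as an alternative; R 4.3.3), with 0.5 added for log2 ratios and a mean count of at least 50. The 96 spike-ins were left out of library sizes. Classes came from subfamily symbols. Python 3.11.15 with pandas 2.3.3, numpy 2.4.6 and matplotlib 3.10.9 served for the rest. Depth is given with the results. On simulated counts for replicate 1 over replicate 2, all 100 genes with a log2 change of 1.5 and all 100 with one of 2 were called, and 4 of 13577 unchanged genes. The simulation used a dispersion of 0.01, and both planted changes exceeded the 2-fold cut, so full recovery was likely from the outset. In the data, 0.937% of 12804 protein-coding genes were 2-fold apart. The simulation thus checks the computation and gives no error rate for calls in these libraries.

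The members, lists and pairs were chosen with earlier results of these data known. Named genes are the detected members, the cardiac current list, members 2-fold apart between replicates and the listed partners and pairs; other members, the promoter and sequence examples and neighbours were chosen after values were seen. Some of these genes and sequences are not reported here. Alternatives covered thresholds, scaling, posterior means, length correction and single libraries.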

Additional observations from a re-analysis of the deposited data

Results flagged for a closer look

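A gene outside the protein-coding members carried signal. Kcnq1ot1, annotated as an antisense RNA gene on the minus strand of chromosome 7 from 143203458 to 143296549, inside Kcnq1, had 1.96 TPM in replicate 1 and 2.37 TPM in replicate 2 (mean 2.165 TPM). It rested on 4849 and 5483 estimated reads over an effective length of 84296 nt, far above the 3 reads that a count of 0 allows. The other 4 antisense genes named after members, Kcnmb4os1, Kcnmb4os2, Kcnd3os and Kcnab3os, had means of 0 to 0.39 TPM.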

How the results depend on the processing

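No paired analysis was possible because the design holds 1 group. Of 77 alternatives, 53 left the count or value near the main one and 24 moved it. Counts, sums, levels and their ratios cannot change sign, so the lack of a reversal among them carries no information. The detection counts of 30 members, 21 pore and 9 accessory fell to 10, 7 and 3 at 5 TPM. CPM, which has no length correction, gave 34 pore genes. Members without overlapping exons or shared counts, added after seeing the data, gave 18. Among the alternatives counted as near, the 30 members became 44 in CPM and 40 at 0.5 TPM. The pore sum of 151 TPM became 187 without spike-ins and globins and 406 in CPM, and the accessory sum of 138 TPM became 171 without spike-ins and globins. The pore over accessory ratio of 1.10 became 2.90 in CPM, 2.78 without the highest gene of each kind and 3.26 without Kcne1 (added after seeing the data). The median member, at 0.352 TPM, became 0.495 with posterior means, 0.384 without spike-ins, 0.439 without spike-ins and globins and 0.897 in CPM. Members 2-fold apart between libraries numbered 1, and 3 by TPM, 34 by spike-ins (which shift the median gene by -1.28 on the log2 scale), 6 and 0 with mean counts of at least 10 and 200, and 17 with no minimum. By spike-ins the median protein-coding gene was thus itself more than 2-fold apart. The shares of all protein-coding genes under these alternatives were not counted. Leading transcripts in 12 members became 7 above 80% and 5 among members at 5 TPM. With either library alone, detection spanned 31 to 32 members, 22 to 22 pore and 9 to 10 accessory genes, the sums 141 to 161 and 124 to 152 TPM, the ratio 1.06 to 1.14, the median 0.35 to 0.355 TPM, ordered pairs 13 to 13 and leading transcripts 13 to 14. Without the limit on distance to the RefSeq start (added after seeing the data), the CpG ratio was at least 0.6 in 26.1% of detected members in place of 15.4%. The causes of these moves were not tested. Classes taken from a protein table were not run, as none was used here; filter codons gave the same split into pore and accessory genes. Near 1 TPM a 1 kb transcript has under 30 reads, which limits Kcne2 and its neighbours in level.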
